A study of Homo sapiens with 6 samples.

Results

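Transcripts of 7 interferon-induced genes were followed in T98G cells, an established human glioblastoma line: IFI6, IFI27, IFI35, IFI44, IFI44L and IFI30, whose names begin with IFI, and XAF1. They were chosen by symbol with earlier results of these data known, so the number of members called is a description. Each was found among the 60483 gene ids of the count tables. Of the 7, 6 passed the filter on low counts that left 14732 genes for testing. Poly(A) RNA was sequenced from untreated cells (NT, 2 libraries), from cells that had received an SRPK1 short hairpin cloned into the plasmid pLKO.1 (shSRPK1, 2 libraries) and from cells that had received full-length SRPK1 cDNA, copied from T98G itself, in the plasmid pcDNA3.1 (oeSRPK1, 2 libraries). SRPK1 is a kinase of serine/arginine-rich splicing factors, and both plasmids entered by transient lipid transfection. No library of cells given an empty plasmid or an unrelated hairpin was used here, so in each comparison with NT the effect of transfection and that of the SRPK1 construct cannot be told apart, and shSRPK1 and oeSRPK1 differ from each other in plasmid as well as insert.

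Type I and type III interferons are secreted proteins that signal through the kinases JAK1 and TYK2 to transcription factors that include STAT2 and IRF9. These act in a complex that binds the interferon-stimulated response element (ISRE) in the promoters of many antiviral genes, while interferon gamma acts mainly through gamma-activated sites. Cells also make interferon when cytosolic sensors detect foreign RNA or DNA. IFI6 and IFI27 encode small hydrophobic membrane proteins, IFI35 a leucine zipper protein that binds its relative NMI, IFI44 and IFI44L a pair of related cytoplasmic proteins with a GTP-binding region, IFI30 the lysosomal thiol reductase GILT, and XAF1 a zinc finger protein that binds the caspase inhibitor XIAP.

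The promoters of the members that moved most are shown because the ISRE core can be read in them directly. The stretches below precede the RefSeq transcription start (GRCh38.p14; for IFI27 and IFI44 the first of 2 listed starts) and end at that start or before an annotated untranslated region. They are IFI6 at chr1:27672219-27672442 on the minus strand, IFI44L at chr1:78620198-78620402, IFI44 at chr1:78649539-78649788 and IFI27 at chr14:94110486-94110677, all 3 on the plus strand. Each is written 5′ to 3′ on the strand of its gene, and capitals mark the ISRE core, GAAA, any 2 bases and GAAA again, on either strand.
IFI6: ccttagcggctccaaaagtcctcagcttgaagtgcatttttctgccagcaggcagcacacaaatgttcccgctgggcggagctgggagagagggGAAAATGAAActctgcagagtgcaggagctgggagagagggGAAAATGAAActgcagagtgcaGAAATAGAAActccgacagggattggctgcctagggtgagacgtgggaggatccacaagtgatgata
IFI44L: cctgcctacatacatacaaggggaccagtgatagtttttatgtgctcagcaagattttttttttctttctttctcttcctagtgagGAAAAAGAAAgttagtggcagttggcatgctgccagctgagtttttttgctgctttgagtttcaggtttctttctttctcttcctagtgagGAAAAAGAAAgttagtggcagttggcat
IFI44: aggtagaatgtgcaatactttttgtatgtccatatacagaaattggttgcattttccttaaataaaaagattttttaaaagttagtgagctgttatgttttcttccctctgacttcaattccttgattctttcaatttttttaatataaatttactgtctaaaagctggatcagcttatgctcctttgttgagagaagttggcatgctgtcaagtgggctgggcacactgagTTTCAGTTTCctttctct
IFI27: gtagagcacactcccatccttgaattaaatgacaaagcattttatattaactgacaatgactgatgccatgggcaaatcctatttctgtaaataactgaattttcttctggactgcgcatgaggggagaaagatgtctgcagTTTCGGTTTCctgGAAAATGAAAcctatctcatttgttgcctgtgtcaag
In the window from 250 bases before to 50 bases after the start, 4 of the 7 members held this core, beside 1195 of all 27305 RefSeq genes with a promoter (4.38%). Counted by promoter rather than by gene, it stood in 1255 of 35116 (3.57%). IFI6 held 3 copies, which began 156, 115 and 93 bases before the start. IFI44L held 2 copies, 164 and 73 bases before it, IFI27 held 2 at 108 and 95 bases, and IFI44 held 1 at 18 bases. No match lay in the windows of IFI35, IFI30 and XAF1. The 4 members with the core were also the 4 with the largest fitted folds over NT in both comparisons below, given here as a description. This order is not resolved, since the 95% intervals of XAF1, without the core, took in the folds of IFI44 in both.

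In IFI44L an 85-base stretch stood in direct repeat at a distance of 91 bases, and each copy carried 1 of the 2 cores (the other copy runs on past the stretch shown). A direct repeat that long was present in 33 of the 35116 promoters (0.094%). The first 2 cores of IFI6 also lay in a repeat, of 29 bases at a distance of 41, and 310 promoters (0.883%) held a repeat of at least that length. The gamma-activated site TTCNNNGAA, which reads the same on both strands, was found in IFI27, where it overlapped both ISRE cores, and in IFI35, beside 9.38% of all genes (7.66% of promoters). After the member promoters had been read, GAAANGAAA, with a spacer of 1 base, was searched on both strands as well. It was in IFI44, where it overlapped the core, in XAF1 and in IFI35, where it overlapped the gamma-activated site, beside 3.87% of all genes (3.12% of promoters). These matches describe letters in a window and were not tested for binding.

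Between 3891549 and 22691215 reads per library fell in genes. Levels are read counts scaled to a common library size by TMM (normalised CPM, here CPM), and a floor of 3 reads stood for 0.135 CPM in the deepest library, oeSRPK1 1, and 0.776 CPM in the shallowest, oeSRPK1 2. The libraries of shSRPK1 differed more from each other than those of the other groups, with a chi-square per gene of 45.2 against 4.44 in NT and 8.04 in oeSRPK1. SRPK1 itself had 152.5 and 140.4 CPM in NT, 113.1 and 140.1 in shSRPK1, then 190.3 and 168.0 in oeSRPK1. By edgeR's quasi-likelihood test it passed in neither comparison with NT (adjusted p = 0.360 and 0.175), and it was higher in oeSRPK1 than in shSRPK1 (log2 fold change 0.50 ± 0.14 (SE), adjusted p = 0.0377). Of the astrocyte and glioma markers, S100B, AQP4 and SOX2 had 0 reads in every library and GFAP 1 read in all, while VIM reached 1741 to 2759 CPM and CD44 2529 to 3336. CHI3L1, a secreted glycoprotein, had 10.2 and 15.2 CPM in NT, 8.99 and 9.47 in shSRPK1, then 2.61 and 2.33 in oeSRPK1, where it was lower than in NT (-2.33 ± 0.27, edgeR adjusted p = 0.00171; 0.0587 without oeSRPK1 1). SLC1A3, a glutamate transporter, was lower in oeSRPK1 too (-1.34 ± 0.36, 0.0339), with 0.102 to 0.208 without any single NT or oeSRPK1 library. No marker of this list was called in shSRPK1 against NT, and the part of these differences in the members' results was not tested. The 9 T, B and NK cell markers stayed under 1 CPM, as did the 5 endothelial markers and 10 of the 12 myeloid markers.

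All 6 tested members were higher in shSRPK1 than in NT, and all 6 were higher in oeSRPK1 than in NT. A call was a Benjamini-Hochberg adjusted p under 0.05 over all tested genes. In the first comparison 9.18% of all genes were called (5.43% higher, 3.75% lower), and in the other 20.6% (11.2% higher, 9.45% lower). Fold changes over NT ran from 3.53 (IFI35) to 26.95 (IFI44L) in shSRPK1 and from 5.31 (IFI35) to 26.6 (IFI27) in oeSRPK1. The median log2 fold change of the 6 was 3.64 and 3.83, while that of all tested genes was 0.01 and -0.0007. Both comparisons use the same NT libraries. Summed over the 7 members the level was 168.8 and 306.4 CPM in NT, 2428 and 3236 in shSRPK1, then 3080 and 2937 in oeSRPK1. In bulk RNA, more cells carrying these transcripts and more transcripts per cell cannot be told apart.

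**Figure D1:**
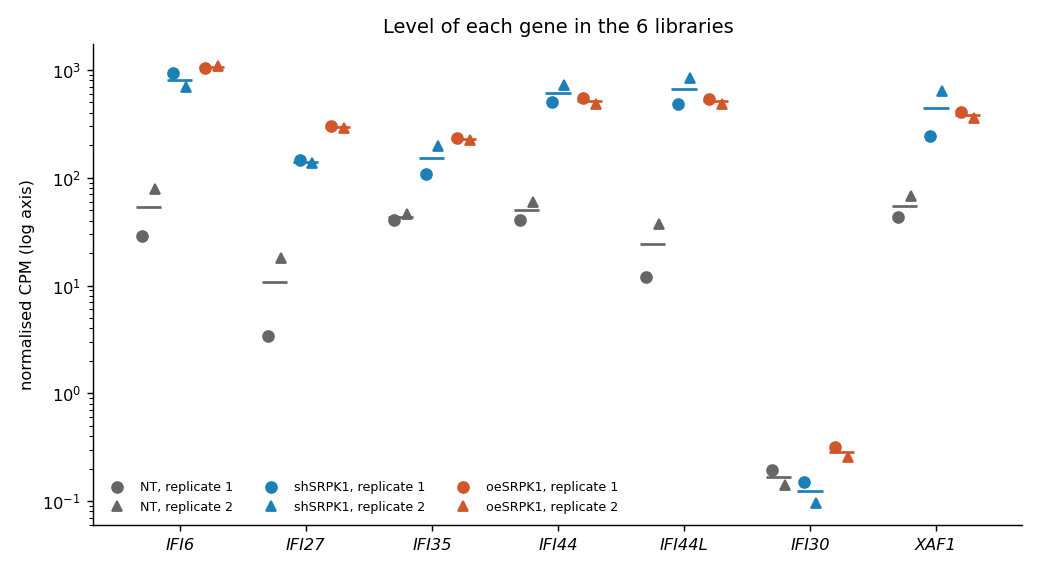
Normalised CPM (log axis) of the 7 genes in the 6 libraries, with circles for replicate 1, triangles for replicate 2 and a horizontal line at each group mean (n = 2). For the 6 tested genes every transfected library lies above both NT libraries, and IFI30 stays under 0.32 CPM throughout. The share of all tested genes that separate in this way was not counted, so the separation is a description only.

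IFI6 (ENSG00000126709.13, GRCh38 chromosome 1, 27666061 to 27672218, minus strand) encodes a membrane protein that restrains apoptosis and the replication of some viruses. It had 28.8 CPM in NT 1 and 79.4 in NT 2, 939.7 and 690.6 in shSRPK1, then 1047 and 1094 in oeSRPK1, from 297, 1124, 12444, 7221, 23281 and 4234 reads. The groups did not overlap, and both oeSRPK1 libraries lay above both shSRPK1 libraries, a difference that did not pass (edgeR adjusted p = 0.555). Here and for the genes below, separation of groups is a description, since the share of all tested genes that separate so was not counted. The level in shSRPK1 stood 14.99-fold above NT (95% interval 6.37 to 35.3, log2 3.91 ± 0.50 (SE), edgeR adjusted p = 0.0147). In oeSRPK1 it stood 19.7-fold above (8.24 to 47.1, 4.30 ± 0.51, edgeR adjusted p = 0.00526). NT 2 stood 2.75 times above NT 1 (counting interval 2.42 to 3.14), so that without NT 2 the folds became 28.2 and 36.9. Both calls were lost without shSRPK1 1 (edgeR adjusted p = 0.102 and 0.0521) or shSRPK1 2 (0.0806 and 0.0538).

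IFI27 (ENSG00000165949.11, chromosome 14, 94104836 to 94116698, plus strand) belongs to the same small family of hydrophobic proteins as IFI6. Its levels were 3.40 and 18.2 CPM in NT, 144.9 and 136.1 in shSRPK1, then 304.5 and 287.7 in oeSRPK1, from 35, 257, 1919, 1423, 6768 and 1113 reads. The libraries of the 3 groups did not overlap, in the order NT, shSRPK1, oeSRPK1, but oeSRPK1 against shSRPK1 did not pass (edgeR adjusted p = 0.25). shSRPK1 was 12.6 times above NT (95% interval 3.78 to 42.2, log2 3.66 ± 0.68 (SE), edgeR adjusted p = 0.0395), and oeSRPK1 26.6 times (7.60 to 93.4, 4.74 ± 0.70, edgeR adjusted p = 0.0134). Of the 6 genes it varied most within NT, 5.34 times from NT 1 to NT 2 (counting interval 3.74 to 7.84). Its folds for shSRPK1 and oeSRPK1 were 7.73 and 16.2 without NT 1, and 41.1 and 86.4 without NT 2. Without shSRPK1 1 or shSRPK1 2 both calls were lost (edgeR adjusted p = 0.139 and 0.126 for shSRPK1, 0.0594 and 0.0617 for oeSRPK1), and that of shSRPK1 was also lost without oeSRPK1 1 (0.0572) or oeSRPK1 2 (0.0592).

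IFI44L and IFI44 lie in tandem on the plus strand of chromosome 1, at 78619922 to 78646145 and 78649796 to 78664078, 3651 bases apart (ENSG00000137959.14 and ENSG00000137965.9). IFI44L had 11.9 and 37.0 CPM in NT, 484.4 and 850.0 in shSRPK1, then 541.0 and 488.8 in oeSRPK1, from 123, 524, 6415, 8888, 12026 and 1891 reads. Both transfected groups lay above NT, and they overlapped with each other. IFI44L stood 26.95 times above NT in shSRPK1 (95% interval 8.73 to 83.2, log2 4.75 ± 0.63 (SE), edgeR adjusted p = 0.0204), the 8th highest log2 fold change among all tested genes. In oeSRPK1 it stood 20.8 times above NT (6.86 to 63.1, 4.38 ± 0.62, edgeR adjusted p = 0.0117). Without NT 1 these folds were 18.0 and 13.85, and without NT 2 they were 55.7 and 42.9. The calls were lost without shSRPK1 1 (edgeR adjusted p = 0.0662 and 0.0525) or shSRPK1 2 (0.0784 and 0.0540).

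IFI44, the neighbour and relative of IFI44L, had 40.8 and 59.0 CPM in NT, 505.1 and 727.8 in shSRPK1, then 545.7 and 481.3 in oeSRPK1, from 420, 835, 6688, 7610, 12130 and 1862 reads. Again the transfected groups lay above NT and overlapped with each other. Its fold over NT was 12.3 in shSRPK1 (95% interval 8.26 to 18.4, log2 3.62 ± 0.25 (SE), edgeR adjusted p = 0.00124) and 10.3 in oeSRPK1 (6.92 to 15.3, 3.36 ± 0.25, edgeR adjusted p = 0.000426). IFI44 was the member whose 2 calls over NT held in every fit that left out 1 library. In those fits its folds ran from 10.1 (without shSRPK1 2) to 15.1 (without NT 2) in shSRPK1 and from 8.67 (without NT 1) to 12.5 (without NT 2) in oeSRPK1. FKBP5, a co-chaperone reported to bind IFI44 and IFI44L, had 41.1 and 35.6 CPM in NT, 27.3 and 33.0 in shSRPK1, then 20.1 and 21.2 in oeSRPK1. It was lower in oeSRPK1 than in NT (-0.90 ± 0.15, edgeR adjusted p = 0.00706), a call lost without NT 1, oeSRPK1 1 or oeSRPK1 2.

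IFI35 (ENSG00000068079.6, chromosome 17, 43006725 to 43014456, plus strand) had 40.6 and 45.6 CPM in NT, 109.3 and 195.4 in shSRPK1, then 232.9 and 225.4 in oeSRPK1, from 418, 646, 1447, 2043, 5177 and 872 reads. The 3 groups did not overlap, but oeSRPK1 against shSRPK1 did not pass (edgeR adjusted p = 0.131). This member had the smallest fold of the 6 over NT in both transfected groups. It was 3.53 times above NT in shSRPK1 (95% interval 2.31 to 5.39, log2 1.82 ± 0.26 (SE), edgeR adjusted p = 0.0126) and 5.31 times in oeSRPK1 (3.45 to 8.19, 2.41 ± 0.26, edgeR adjusted p = 0.00234). The shSRPK1 call was lost without NT 1 (0.178) or NT 2 (0.106). NMI, which binds IFI35, had 12.4 and 10.0 CPM in NT, 17.4 and 34.8 in shSRPK1, then 44.9 and 40.6 in oeSRPK1, and passed in oeSRPK1 against NT (log2 1.95 ± 0.32, edgeR adjusted p = 0.00885) but not in shSRPK1 against NT (1.22 ± 0.32, 0.0594). The NMI call was lost without NT 1, NT 2 or oeSRPK1 1.

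XAF1 (ENSG00000132530.15, chromosome 17, 6755447 to 6775647, plus strand) had 43.1 and 67.1 CPM in NT, 244.8 and 636.5 in shSRPK1, then 408.3 and 359.1 in oeSRPK1, from 444, 950, 3242, 6656, 9075 and 1389 reads. Every transfected library was above NT, and the oeSRPK1 levels lay between those of the 2 shSRPK1 libraries. Its folds over NT were 7.97 in shSRPK1 (95% interval 3.26 to 19.5, log2 2.995 ± 0.51 (SE), edgeR adjusted p = 0.0297) and 6.95 in oeSRPK1 (2.86 to 16.9, 2.80 ± 0.51, edgeR adjusted p = 0.0200). The shSRPK1 fold was 4.42 without shSRPK1 2, and its call was lost without NT 1 (0.255), NT 2 (0.132), oeSRPK1 1 (0.0518) or oeSRPK1 2 (0.0510). The oeSRPK1 call was lost without NT 1 (0.123), NT 2 (0.0787) or oeSRPK1 1 (0.0764). The antisense gene PRAL covers 38.3% of the exon bases of XAF1, and since the strand setting of the counting is not given in the sources used here, reads of both genes could not be separated there. PRAL itself was counted at 0 to 3 reads per library.

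IFI30 (ENSG00000216490.3, chromosome 19, 18173162 to 18178117, plus strand) was close to absent from the tables, with 2, 2, 2, 1, 7 and 1 reads in the order NT, shSRPK1, oeSRPK1. These are 0.0956 to 0.315 CPM, and in 5 of the 6 libraries the count was below the floor of 3 reads. It was not tested, and no difference could be detected from these counts. A readthrough gene, AC007192.1, shares 997 of the 2481 exon bases of IFI30 (40.2%) on the same strand and had 1 read in all. Reads that fit both genes may have been set aside as ambiguous. The low counts therefore need not show how much IFI30 transcript the cells held.

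**Figure D2:**
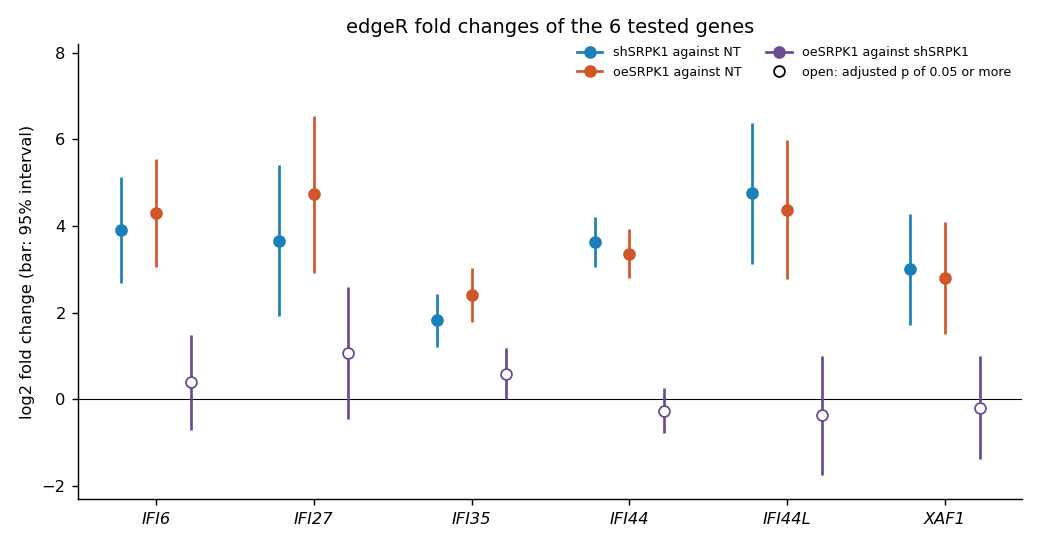
Log2 fold changes of the 6 tested genes with 95% intervals derived from edgeR's F statistic, for each transfected group against NT and for oeSRPK1 against shSRPK1. Filled points passed an adjusted p of 0.05. The points over NT lie between 1.82 and 4.75 with no interval reaching 0, whereas those of oeSRPK1 against shSRPK1 lie between -0.37 and 1.08 and are all open.

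Between the transfected groups 0 of the 6 passed the edgeR test, while 22.8% of all tested genes did (11.5% higher, 11.3% lower). Without adjustment 1 passed, IFI35, and DESeq2 and limma-voom also called 0. The intervals of oeSRPK1 over shSRPK1 were 0.616 to 2.80 times for IFI6, 0.733 to 6.06 for IFI27, 1.001 to 2.27 for IFI35, 0.582 to 1.19 for IFI44, 0.298 to 2.00 for IFI44L and 0.382 to 1.99 for XAF1. A 2-fold difference in either direction thus lay outside the interval for IFI44, whereas for IFI27 a difference of several-fold did not. IFI27 was 2.11 times higher in oeSRPK1 (edgeR adjusted p = 0.250), and 2.10 times without NT 1 or NT 2. IFI35 was 1.51 times higher (0.131), and 2.04 times without shSRPK1 2. IFI44 was 0.834 times the shSRPK1 level (0.423), and 0.690 times without shSRPK1 1. Each was called in those fits, which leave 1 library in a group. NT enters this comparison only through the shared spread and scaling. The number called over all genes changed widely between such fits (last section), so these calls are not read as results about the members. Without shSRPK1 2 the sign of the difference turned for IFI44L (log2 0.05) and XAF1 (log2 0.61), and neither passed.

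Within the groups the members differed between libraries by unequal amounts. In NT the level was higher in NT 2 than in NT 1 for all 6, by 5.34 times for IFI27, 3.10 for IFI44L, 2.75 for IFI6, 1.56 for XAF1, 1.45 for IFI44 and 1.12 for IFI35, the last with a counting interval that includes 1 (0.993 to 1.27). Of all tested genes, 99.97% differed less between the NT libraries than IFI27, 99.75% less than IFI44L and 99.55% less than IFI6. In shSRPK1 the members went both ways from replicate 1 to replicate 2, with XAF1 at 2.60 times, IFI35 at 1.79, IFI44L at 1.76, IFI44 at 1.44, IFI27 at 0.939 and IFI6 at 0.735. In oeSRPK1, whose libraries differed most in depth, all 6 agreed within 0.880 to 1.05 times. The median absolute log2 difference of all tested genes between replicates was 0.13 in NT, 0.27 in shSRPK1 and 0.16 in oeSRPK1.

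**Figure D3:**
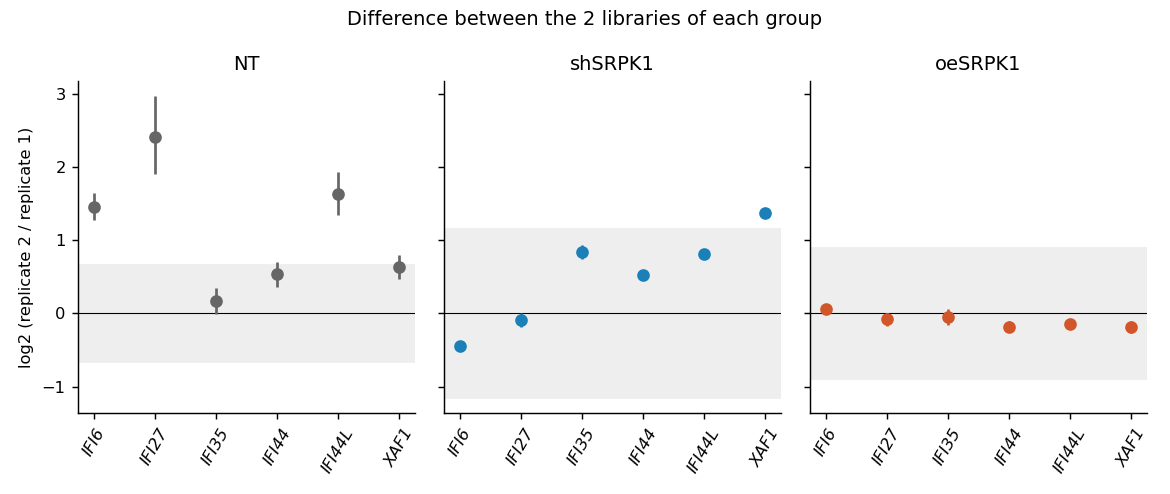
Log2 ratio of replicate 2 to replicate 1 for the 6 tested genes in each group, with 95% counting intervals (often smaller than the points); the grey band holds 95% of all tested genes. IFI27, IFI44L and IFI6 lie above the band in NT (2.42, 1.63 and 1.46), XAF1 in shSRPK1 (1.38), and none in oeSRPK1.

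**Figure D4:**
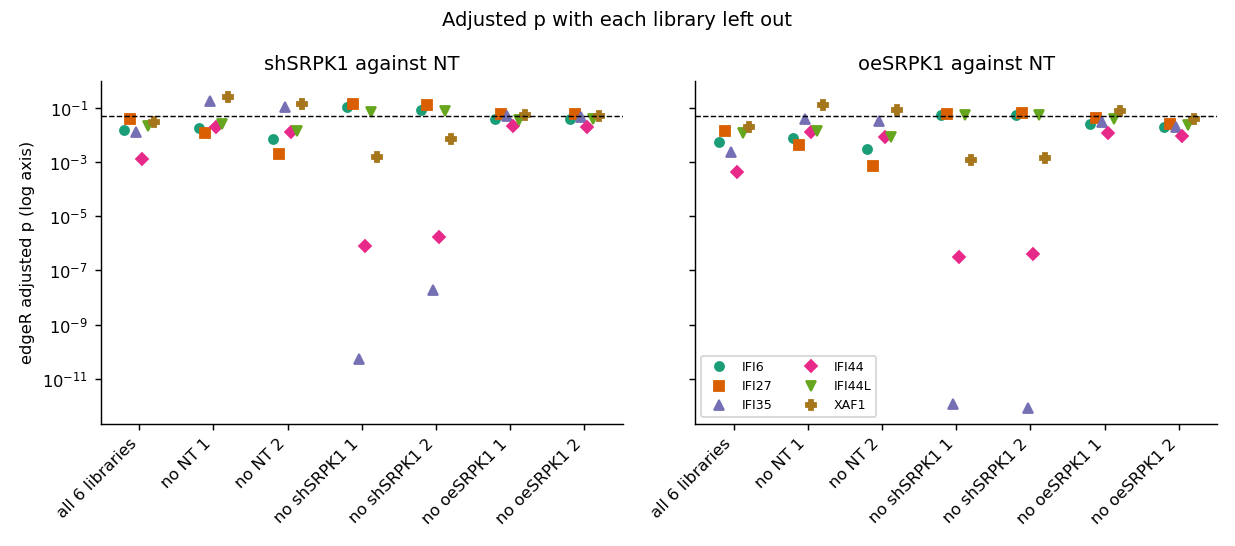
Adjusted p (edgeR, log axis) of the 6 genes with all libraries and with each library left out, for both comparisons with NT; the dashed line is 0.05. IFI44 is the gene that stays under the line throughout. IFI6, IFI27 and IFI44L cross it when a shSRPK1 library is left out, and IFI27 in shSRPK1 against NT also without an oeSRPK1 library. XAF1 crosses it without an NT library or an oeSRPK1 library, and IFI35 in shSRPK1 against NT without an NT library.

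Whichever library was left out, all 6 folds over NT stayed upward, while some calls were lost. The number of members called is not comparable between these fits, because the number called over all genes changed widely too (last section). With no filter on low counts IFI35 and IFI44 passed over NT and the other 4 did not, at edgeR adjusted p of 0.0889 to 0.169 in shSRPK1 and 0.0570 to 0.134 in oeSRPK1. The fitted log2 folds moved little there, at 3.91 for IFI6 and 4.75 for IFI44L in shSRPK1 against NT. With only NT and 1 transfected group in the fit, IFI27, IFI35 and XAF1 lost the shSRPK1 call (0.0635, 0.0539 and 0.0560), and IFI6, IFI27 and IFI44L the oeSRPK1 call (0.0506, 0.0580 and 0.0506). Tested against a minimum of 2-fold, IFI44 passed in shSRPK1, and IFI6, IFI35 and IFI44 in oeSRPK1.

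Compared per kilobase of annotated exon, the members kept IFI6 and IFI44 as the highest and the second highest in each group. In NT the means were 62.6 CPM per kb for IFI6, 24.5 for IFI44, 21.9 for IFI35, 8.33 for XAF1, 2.60 for IFI27, 2.39 for IFI44L and 0.0676 for IFI30. The ranges of IFI44 and IFI35 overlapped, as did those of IFI27 and IFI44L. In shSRPK1 IFI6 reached 942 CPM per kb and IFI44 302.5, followed by IFI35 at 77.2, XAF1 at 66.6 and IFI44L at 65.2, whose ranges overlapped as neighbours in that order, and by IFI27 at 33.9. In oeSRPK1 the order was IFI6 at 1238, IFI44 at 252, IFI35 at 116, IFI27 at 71.4, XAF1 at 58.0 and IFI44L at 50.3, with no overlap between neighbours. These exon lengths join all annotated transcripts of a gene (10240 bases for IFI44L, 865 for IFI6), so genes with long alternative exons are placed low on this scale. The value of IFI30 may also lack reads that fit its readthrough gene.

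Other genes of the interferon response were placed beside the members, in lists also drawn up with earlier results of these data known. Of 36 other interferon-stimulated genes, all tested, 34 rose in shSRPK1 against NT and 35 in oeSRPK1 against NT, and none fell, with median log2 fold changes of 2.41 and 2.83. ISG15, a ubiquitin-like modifier, had 31.3 and 50.1 CPM in NT, 262 and 288 in shSRPK1, then 597 and 667 in oeSRPK1 (log2 2.75 ± 0.22 and 3.95 ± 0.23, edgeR adjusted p = 0.00156 and 0.000294). PARP9, an ADP-ribosyltransferase family member, changed by 2.27 ± 0.16 and 2.67 ± 0.16 (0.00124 and 0.000294), and OAS3, a sensor of double-stranded RNA, by 3.26 ± 0.24 and 3.76 ± 0.24 (0.00124 and 0.000351). IFIT2 passed in neither (4.71 ± 1.17 and 3.98 ± 1.14, 0.0917 and 0.0867). Far fewer were called in shSRPK1 without NT 1 or NT 2, and fewer in oeSRPK1 without NT 1, NT 2 or oeSRPK1 1. Over all genes, too, the number called was lowest without NT 1 in shSRPK1 and without oeSRPK1 1 in oeSRPK1 (last section). Between oeSRPK1 and shSRPK1, 5 of the 36 were higher, beside 11.5% of all tested genes, ISG15 among them (1.20 ± 0.21, edgeR adjusted p = 0.00811). In the same comparison 1 was lower, BST2 (-0.49 ± 0.13, 0.0368), beside 11.3% of all tested genes. These counts are not read as a result about the list. Fewer were higher when either oeSRPK1 library was left out, and more without shSRPK1 2. More were lower when either shSRPK1 library was left out. Over all genes the number called was also lowest without oeSRPK1 1 and highest without shSRPK1 2 (last section). BST2 did not pass there without NT 1, NT 2, oeSRPK1 1 or oeSRPK1 2 (0.0740 to 0.216).

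**Figure D5:**
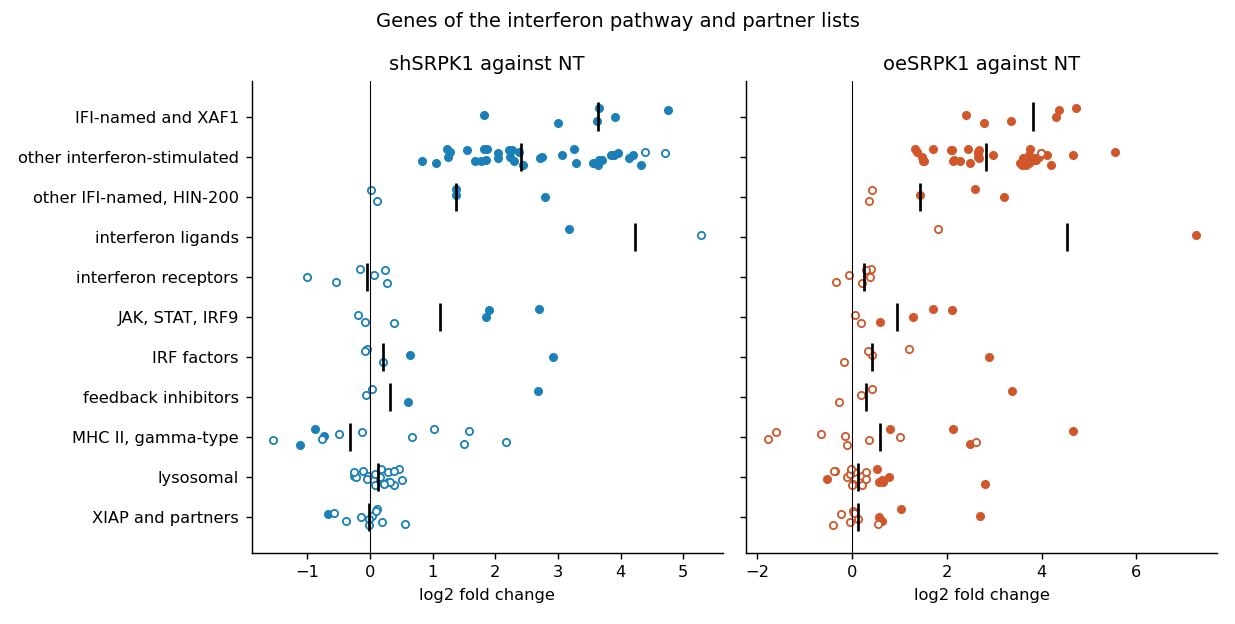
Log2 fold changes over NT of the tested genes of each list (filled: adjusted p under 0.05 by edgeR; black bar: median of the list), for shSRPK1 on the left and oeSRPK1 on the right. The 6 members and the 36 other interferon-stimulated genes lie to the right of 0 in both panels, while the receptors lie on both sides of it and are all open.

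Reads of the interferon genes themselves were few. IFNB1 had 1, 1, 3, 8, 23 and 3 reads in the order NT, shSRPK1, oeSRPK1 and was not tested. IFNL1, a type III interferon, had 0, 0, 3, 6, 25 and 10 reads and rose in oeSRPK1 against NT (edgeR adjusted p = 0.0120) without passing in shSRPK1 against NT (0.0966). IFNE had 0.388 and 0.141 CPM in NT, 1.66 and 3.06 in shSRPK1, then 0.945 and 0.776 in oeSRPK1, and rose in shSRPK1 against NT (3.18 ± 0.58, 0.0203). No read was counted for IFNA1, IFNA2, IFNK or IFNG. Neither ligand call held when an NT library or an oeSRPK1 library was left out. None of the 6 receptor genes was called over NT, the smallest edgeR adjusted p being 0.0682 in shSRPK1 (IFNGR1, -0.55 ± 0.16) and 0.0561 in oeSRPK1 (IFNAR1, 0.40 ± 0.12). With either shSRPK1 library left out, some receptor genes were called over NT, while over all genes the number called was highest without shSRPK1 2 (last section). With only NT and oeSRPK1 in the fit 2 receptor genes were higher and 1 lower in oeSRPK1, where more of all genes were called too (last section).

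Among the signalling genes, STAT2 and IRF9 rose in both transfected groups. STAT2 had 78.3 and 90.0 CPM in NT, 242 and 369 in shSRPK1, then 216 and 195 in oeSRPK1 (1.86 ± 0.20 and 1.29 ± 0.20, edgeR adjusted p = 0.00441 and 0.00582), every transfected library above NT. IRF9 rose by 2.69 ± 0.31 and 1.72 ± 0.32 (0.00474 and 0.00990). IRF9 was lower in oeSRPK1 than in shSRPK1 (-0.97 ± 0.28, 0.0410). JAK2 was higher in oeSRPK1 than in NT (0.61 ± 0.15, 0.0255), and JAK1 and TYK2 passed in neither. In shSRPK1 against NT the edgeR adjusted p of STAT2 and IRF9 was 0.0998 and 0.0943 without NT 1, and 0.0591 and 0.0536 without NT 2. In oeSRPK1 against NT STAT2, IRF9 and JAK2 had 0.0832, 0.103 and 0.211 without NT 1, 0.0541, 0.0570 and 0.147 without NT 2, and 0.0958, 0.170 and 0.280 without oeSRPK1 1, and JAK2 had 0.0717 without oeSRPK1 2. The difference of IRF9 between the transfected groups had 0.0700 to 0.187 without any single NT or oeSRPK1 library. IRF7, which drives further interferon production, rose by 2.92 ± 0.23 and 2.89 ± 0.23 (0.00145 and 0.000454), and was called without any single library.

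Of the other interferon regulatory factors, IRF2 rose in shSRPK1 against NT (0.64 ± 0.16, edgeR adjusted p = 0.0435), with 0.112 to 0.319 without any single NT or oeSRPK1 library, and did not pass in oeSRPK1 against NT (0.42 ± 0.16, 0.102). IRF1 went from 101 and 123 CPM in NT to 63.1 and 154 in shSRPK1, then 271 and 250 in oeSRPK1, without passing (adjusted p = 0.95 and 0.0886), and IRF5 did not pass either (0.868 and 0.357). USP18, a feedback inhibitor at the receptor, rose by 2.68 ± 0.30 and 3.37 ± 0.30 (0.00637 and 0.00114). In shSRPK1 its adjusted p was 0.0865 without NT 1 and 0.0520 without NT 2, while in oeSRPK1 it was called without any single library. SOCS3, an inhibitor of JAK kinases, was higher in shSRPK1 than in NT (0.60 ± 0.15, 0.0457), with 0.114 to 0.390 without any single NT or oeSRPK1 library.

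The other genes with IFI names, with the related DNA sensors of the HIN-200 family, did not all move. IFI16, IFIH1 and AIM2 rose in both groups, IFIH1, the RNA sensor MDA5, by 2.79 ± 0.40 and 3.20 ± 0.41 (edgeR adjusted p = 0.0197 and 0.00654), IFI16 by 1.37 ± 0.15 and 1.45 ± 0.15 (0.00433 and 0.00124), and AIM2 by 1.36 ± 0.19 and 2.61 ± 0.19 (0.00940 and 0.000397). IFI27L1 and IFI27L2, relatives of IFI27 on either side of it, did not pass (0.12 and 0.35, and 0.02 and 0.43, adjusted p of 0.135 or more). These 3 calls became 0 in shSRPK1 without NT 1 or NT 2, and 2 in oeSRPK1 without NT 1. IFI27L1 ends 990 bases before IFI27 and had 6.85 to 10.6 CPM across the libraries.

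Flanking genes were taken as the nearest tested gene on each side of each member, 12 in all apart from the members. In shSRPK1 against NT 3 of the 12 were higher (AHDC1, FAM76A and PTGFR) and 1 lower (RPL27), beside 9.18% of all genes called. In oeSRPK1 against NT 2 of the 12 were higher (ADGRL4 and FBXO39), beside 20.6% of all genes called. Whether these calls hold without single libraries was not examined here. The log2 fold changes of the 12 ran from -0.61 to 1.70 in shSRPK1 against NT and from -0.62 to 2.27 in oeSRPK1 against NT. VAT1, 149 bases from IFI35, had 358 and 332.5 CPM in NT, 233 and 271 in shSRPK1, then 329.5 and 307 in oeSRPK1, and did not pass (-0.45 ± 0.13 and -0.12 ± 0.13, edgeR adjusted p = 0.0652 and 0.552). FBXO39, which begins 576 bases past XAF1 on the same strand, had 2, 8, 12, 19, 43 and 8 reads and was higher in oeSRPK1 than in NT (2.27 ± 0.57, 0.0275). RPL27, 3766 bases before IFI35, was lower in shSRPK1 (-0.61 ± 0.13, 0.0273).

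Genes tied to the known roles of IFI30 and XAF1 were examined next. Of 20 lysosomal proteins none was called in shSRPK1 against NT (smallest edgeR adjusted p 0.0553, CTSA, 0.46 ± 0.12), beside 9.18% of all genes. In oeSRPK1 against NT 6 were higher and 1 lower, beside 11.2% and 9.45% of all genes. The smallest adjusted p was that of the cathepsin CTSS, at 17.8 and 23.5 CPM in NT, 23.9 and 20.5 in shSRPK1, then 155 and 134 in oeSRPK1 (2.81 ± 0.17, edgeR adjusted p = 0.000294). NPC1, a cholesterol transporter, was higher as well (0.78 ± 0.12, 0.00605), and the 1 lower gene was GAA, the acid alpha-glucosidase (-0.51 ± 0.11, 0.0169), whereas TPP1, a peptidase, had 325.5 and 310.5 CPM in oeSRPK1 beside 316 and 320.1 in NT. In shSRPK1 against NT some of the list were called when either shSRPK1 library was left out. Of 12 tested genes of MHC class II presentation and the interferon gamma response, 3 fell in shSRPK1 against NT (CIITA, CD74 and HLA-DPA1), beside 3.75% of all genes. In oeSRPK1 against NT 4 of the 12 rose (CXCL11, IDO1, GBP5 and CD74), beside 11.2% of all genes. CIITA, the activator of the class II genes, had 16.6 and 14.9 CPM in NT, 9.89 and 8.99 in shSRPK1, then 15.4 and 12.4 in oeSRPK1 (-0.73 ± 0.18 in shSRPK1 against NT, 0.0409). The 3 lower calls became 0 without NT 1, NT 2, oeSRPK1 1 or oeSRPK1 2. With either shSRPK1 library left out, more of this class II list were called, in both directions. In oeSRPK1 the 6 lysosomal calls became 1 without NT 1, NT 2 or oeSRPK1 1 and 2 without oeSRPK1 2, and the 1 lower call was lost in each of these. With either shSRPK1 library left out, more of the 20 lysosomal genes were called. Most or all of the 4 calls of the class II list were lost without NT 1, NT 2 or oeSRPK1 1. More were called when either shSRPK1 library was left out. Over all genes the number called was highest without shSRPK1 2 in both comparisons with NT (last section). The added calls are therefore not read as results about either list.

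XIAP, the partner of XAF1, had 71.9 and 74.8 CPM in NT, 47.1 and 65.3 in shSRPK1, then 113.4 and 113.7 in oeSRPK1. It did not pass in shSRPK1 against NT (-0.39 ± 0.16, edgeR adjusted p = 0.150) and was higher in oeSRPK1 against NT (0.63 ± 0.16, 0.0267). BIRC3, another inhibitor of apoptosis, had 178 and 229 CPM in NT, 226 and 190 in shSRPK1, then 1428 and 1210 in oeSRPK1 (2.70 ± 0.18 in oeSRPK1, 0.000378). BIRC2, a related inhibitor, was higher in oeSRPK1 against NT as well (1.05 ± 0.13, 0.00239), and BIRC5, the related survivin, did not pass in either group (0.619 and 0.935). Against shSRPK1, too, XIAP was higher in oeSRPK1 (1.016 ± 0.16, edgeR adjusted p = 0.00566), with 0.0951 without oeSRPK1 1. In oeSRPK1 against NT the adjusted p of XIAP was 0.124 to 0.207 without any single NT or oeSRPK1 library, that of BIRC2 0.0586 without NT 1 and 0.0601 without oeSRPK1 1, and that of BIRC3 at most 0.0131 without any single library. Without shSRPK1 2 XIAP was lower in shSRPK1 than in NT (-0.64, edgeR adjusted p = 0.000189).

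Likeness was measured as the root mean square difference of centred log2 CPM over the 6 libraries, among 12491 genes whose log2 CPM averaged 1 or more. The nearest genes outside the 7 were IFITM1 (0.35) and OAS1 (0.38) for IFI6, EPSTI1 (0.13) and MX1 (0.24) for IFI44, and IFIT1 (0.29) and OAS1 (0.46) for IFI44L. For IFI35 they were SP110 (0.11) and DDX60 (0.12), and for XAF1 TRIM22 (0.11) and HELZ2 (0.21). IFI27 had RSAD2 (0.64) and CMPK2 (0.66), and IFI6 was nearer to it than any other gene (0.43). IFI44 was not the gene nearest to its neighbour IFI44L, for which the nearest member was IFI6 (0.53). These values describe 6 libraries that differ in group and depth.

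Skeletal muscle transcripts were most abundant in the oeSRPK1 libraries. The summed level of 10 muscle markers was 68.5 to 70.6 CPM in NT, 74.9 to 77.8 in shSRPK1, and 331 and 2772 in oeSRPK1. TNNT1, a troponin, made up most of the sum in NT and shSRPK1, at 65.7 to 73.9 CPM, and had 108 and 120 in oeSRPK1. MYH7, a myosin heavy chain, had 0 reads in both NT libraries and in shSRPK1 1, 61 in shSRPK1 2, then 2399 and 4905 in oeSRPK1. ACTA1, skeletal muscle actin, had 1, 2, 1, 37, 1646 and 3469 reads in the same order, so that shSRPK1 2 also carried more of these reads than NT and shSRPK1 1. None of the 10 was at 0 in every library, and 7 of the 10 were tested. Of these, 2 were called higher in oeSRPK1 against NT (ACTA1 and TNNT1), which became 0 without NT 1 or NT 2, 1 without either shSRPK1 library and 6 without either oeSRPK1 library. The part of these transcripts in the members' results was not tested. For IFI6, IFI27, IFI35, IFI44, IFI44L and XAF1 the folds over NT without oeSRPK1 2 were 19.3, 27.5, 5.40, 10.9, 21.9 and 7.40. Without oeSRPK1 1 they were 19.7, 25.4, 5.11, 9.42, 19.35 and 6.36 in the same order. Both oeSRPK1 libraries held muscle reads, so leaving out 1 of them cannot show what part these transcripts had.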

How the data were processed

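Gene counts were read from 6 deposited tables, 1 per library. As deposited, these are raw read counts, whole numbers for each gene id. The submitters' processing notes name FastQC, Trimmomatic, STAR 2.5.3 and the build hg38. Per the labels' protocols, reads were paired and 101 bp long, from RNA with an integrity number above 8. The counting tool, annotation release and strand setting are not given in the sources used here. The 2 libraries of a group are called biological replicates in the series text, with no word on separate cultures, so p-values measure the spread between these libraries, which may be partly technical. The 5 rows per table that name no gene (23.54% to 26.72% of the total) were left out.

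Symbols came from a gene name table (41124 ids) or GENCODE 29 (15629 ids), gene positions and exon lengths from GENCODE 29, and promoters from RefSeq (GRCh38.p14), which matched 7 of 7 members. Genes were filtered with filterByExpr (minimum count 10, minimum total 15), which kept 14732 genes and 99.8% of gene reads. After TMM scaling, the counts were fitted over all 6 libraries with glmQLFit (robust) and glmQLFTest of edgeR 4.0.16 in R 4.3.3. The shared spread was a biological coefficient of variation of 14.5%. The test itself returns no standard error, so SE was taken as the absolute log2 fold change divided by the square root of the F statistic. The 95% intervals of fold changes were built from this SE and a t distribution with the total degrees of freedom of the test. p-values were adjusted over all genes by Benjamini-Hochberg, and an adjusted p under 0.05 was a call. Intervals from counts are exact binomial at 95% and, like floors, cover counting error only, since reads carried no molecular identifiers.

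The 19 alternatives per result were 3 other scalings (DESeq2's size factors, upper quartile, library size alone), no filter, at least 2 libraries with a CPM of 5, a threshold of 0.01, a minimum of 2-fold, DESeq2 1.42.0, limma-voom (limma 3.58.1) with and without a spread per group, only the groups compared, a replicate block, thinning to the shallowest library, and leaving out each of the 6 libraries, where the remaining library of a group was taken to vary as the other groups do. List counts and the values of 16 genes of the lists without each library, the motif GAAANGAAA and promoter repeats were chosen after seeing the data. List counts without a library are to be read beside the number called over all genes, which changed widely between these fits (last section). Genes named were all members, genes of the signalling lists and binding partners, from each other list the 3 smallest and the largest adjusted p in oeSRPK1 against NT, flanking genes, the 2 most alike and SRPK1. BST2, CIITA, CD74, CTSA and the markers CHI3L1, SLC1A3, CSF1R, ITGAM, ACTA1, MYH7 and TNNT1 were named after their values were seen. The members, lists and tests were chosen with earlier results of these data known. A few genes of the lists are not reported here. The steps were tested on simulated data.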

Additional observations from a re-analysis of the deposited data

How the results depend on the processing

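Every fold change of the 6 tested members over NT kept its direction in all 19 alternatives. Of the 114 values for shSRPK1 against NT 78 kept their call and 36 lost it, and for oeSRPK1 against NT 92 kept it and 22 lost it. For oeSRPK1 against shSRPK1, 105 of 114 were without change, 7 became calls and 2 turned, both without shSRPK1 2. With 1 library left out the log2 difference ran from -0.76 (without shSRPK1 1) to 0.048 for IFI44L and from -0.76 (without shSRPK1 1) to 0.61 for XAF1.

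The number of members called over NT was 6 in shSRPK1 and 6 in oeSRPK1. It became 2 and 2 with no filter, 1 and 3 at an adjusted p under 0.01, 1 and 3 with a minimum of 2-fold, 3 and 3 with only the groups compared, and 2 in shSRPK1 with a spread per group in limma-voom. Leaving out 1 library gave 3 to 4 and 3 to 6. Between oeSRPK1 and shSRPK1 the count of 0 became 1 with no filter (IFI35), with a spread per group (IFI35) and with only those groups (IFI27), and 0 to 1 with 1 library left out. The causes were not tested.

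Over all genes the 3 comparisons, in the order above, had counts of 1352, 3036 and 3361. They were 181, 988 and 970 at an adjusted p under 0.01, 34, 204 and 97 with a minimum of 2-fold, and 129, 6331 and 1505 with only the groups compared. With no filter shSRPK1 against NT had 2616, and with a spread per group oeSRPK1 against NT had 6287. With 1 library left out they ran from 29 (without NT 1) to 4595 (without shSRPK1 2), from 293 (without oeSRPK1 1) to 6415 (without shSRPK1 2) and from 144 (without oeSRPK1 1) to 6152 (without shSRPK1 2). With library sizes alone 625 of 1687 calls in shSRPK1 against NT were higher, against 800 of 1352, and 1363 of 3144 in oeSRPK1 against NT, against 1644 of 3036; the 6 members were higher in each.

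With the replicate block 6, 6 and 0 members and 1006, 2639 and 2846 genes were called. Libraries with the same number did not deviate together (correlation across genes 0.01, -0.02 and 0.02), so the numbers were not taken as a pairing.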
